A study of Homo sapiens with 6 samples.

Results

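The genes described here are the glycosyltransferases and sulfotransferases of 12 families in Caco-2, a long-established cell line from a human colorectal tumour that resembles absorptive gut epithelium. They were picked by a rule on the symbol, which was set with earlier results of these data known. It takes FUT with a number, ST3GAL, ST6GAL (with ST6GALNAC), ST8SIA, B3GALT, B3GNT, B4GALT, GALNT, GCNT, MGAT and CHST. Symbols with a hyphen and descriptions with the word pseudogene were left out. The rule found 100 of the 27685 genes in the table and left out 9 rows that match the stems, 8 antisense RNAs and the pseudogene MGAT4EP. PolyA RNA was sequenced from 2 groups of 3 libraries: cells carrying hFABP1as, a construct antisense to FABP1 (the fatty acid carrier of liver and gut), with the genotype label FABP1_knockdown, and mock-transfected cells with the vector pcDNA3, labelled WT. Both groups are derivatives of the same line, and the sources used here do not say whether either is 1 clone or whether replicates were separate cultures, so p-values may measure only technical spread.

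The deposited table holds read counts per gene. Levels are given as CPM (counts relative to the scaled size of each library) and changes as log2 fold changes of FABP1 antisense over vector control from the quasi-likelihood test of edgeR, adjusted by Benjamini-Hochberg over all 14640 genes tested. "Rose" and "fell" are used of adjusted p values under 0.05. Libraries are named by the numbers 2, 3 and 4 in the column headers. Library totals were 41768687 to 55153051 counts in FABP1 antisense and 40351394 to 57979037 in vector control, so that 3 counts over a group correspond to 0.0211 and 0.0212 CPM. FABP1 itself was no lower in counts under the antisense label. It had 134, 147 and 122 CPM in FABP1 antisense, against 138, 102 and 121 CPM in vector control (log2 fold change 0.16, SE 0.12, 95% interval -0.10 to 0.42, adjusted p = 0.268 by edgeR's quasi-likelihood test). The sources used here do not say whether counting used strand. Whether RNA of the antisense construct is among the FABP1 counts cannot be told and was not tested. Every direction below is therefore one between libraries as labelled. Of 7 epithelial markers 4 rose and 1 fell. CDH1 was high in both groups, at 610, 648 and 627 CPM in FABP1 antisense against 529, 580 and 534 CPM in vector control. KRT20, a keratin of differentiated gut epithelium, had 5.80, 5.68 and 4.57 CPM in FABP1 antisense against 0.660, 0.612 and 0.489 CPM in vector control (log2 fold change 3.17, SE 0.20), and CDX2, an intestinal transcription factor, rose too (log2 fold change 1.09, SE 0.08). PTPRC, CDH5, KDR, COL1A2 and DCN, among the listed markers of leukocytes, endothelium and stroma, had 0 counts in all 6 libraries. Of the tested markers on these lists, 3 of 4 rose and 1 fell for leukocytes, both rose for endothelium, and 2 of 5 rose and 2 fell for stroma. Summed levels were 63.2 to 66.8, 2.39 to 2.67 and 31.5 to 35.6 CPM in FABP1 antisense, against 44.0 to 48.0, 0.833 to 1.42 and 39.4 to 42.3 CPM in vector control. Single markers changed far more than these sums, in both directions. LUM averaged 18.1 CPM in FABP1 antisense against 0.133 in vector control, and CSF1R 3.23 against 0.264. PDGFRA averaged 0.386 CPM in FABP1 antisense against 22.7 in vector control, and CD14 2.46 against 12.8.

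As background, mucins and other secreted or membrane proteins carry O-linked glycans that begin with a GalNAc placed on serine or threonine by a GALNT enzyme. That sugar is sialylated directly by ST6GALNAC enzymes, or built into core structures by C1GALT1 and the GCNT branching enzymes. B3GNT and B4GALT enzymes lengthen the arms. B3GALT, FUT, ST3GAL and CHST enzymes cap them with galactose, fucose, sialic acid or sulfate, which make the H, Lewis and sialyl Lewis antigens of gut epithelium. The symbol rule also takes in genes outside mucins and glycolipids: MGAT enzymes and FUT8 build N-linked glycans, and several CHST enzymes, B3GALT6 and B4GALT7 serve chondroitin-type proteoglycans.

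Of the 100 genes, 66 had enough counts to be tested. In FABP1 antisense libraries 28 rose and 21 fell, and 17 did not pass the test. That is 74.2% of the members tested, beside 55.0% of all genes tested, of which 27.7% rose and 27.3% fell. At least 2-fold changes were seen in 13 members that rose and 9 that fell, where the shares over all genes were 14.9% in either direction, 8.80% for rises and 6.12% for falls. The median log2 fold change was 0.17 over the tested members and 0.0082 over all tested genes. The libraries of the groups did not overlap for 50 members, and for 62.7% of all tested genes. Together the 100 genes took 0.281%, 0.284% and 0.284% of the counts in FABP1 antisense libraries 2, 3 and 4, against 0.256%, 0.265% and 0.263% in vector control. A higher share of members than of all genes was called, in a set chosen with earlier results of these data known. The shares in B4GALT (57.1%), GALNT (58.3%), ST3GAL (60%) and B3GNT (62.5%) lay near the 55.0% of all tested genes. Those in CHST, FUT and MGAT were 77.8%, 83.3% and 85.7%, and every tested B3GALT, GCNT, ST6GAL and ST6GALNAC gene was called. The shares over all genes also stand beside the counts of markers and listed genes. Calls in both directions occurred in 10 of the 12 families, as the plot of all fold changes shows.

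**Figure D1:**
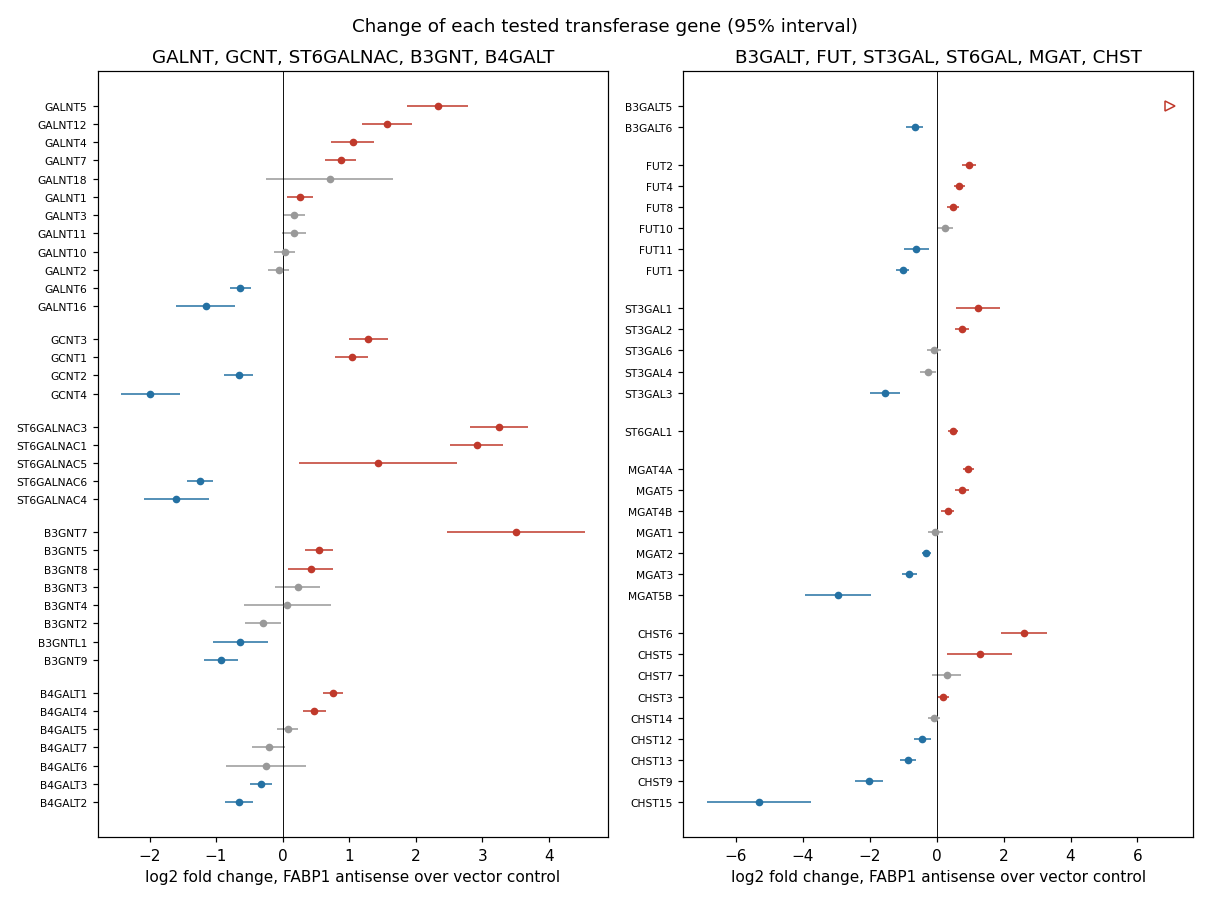
Log2 fold change of each tested gene, FABP1 antisense over vector control, with its 95% interval, grouped by family; red genes rose, blue genes fell and grey genes did not pass the test. The open triangle for B3GALT5 stands at its lower bound, since vector control had 0 counts, and most families hold genes on both sides of 0.

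The GALNT family starts O-glycans, and 5 of its 12 tested members rose and 2 fell, with a median log2 fold change of 0.22. That is 58.3% called, near the 55.0% of all tested genes. GALNT5 had 4.66, 4.09 and 3.71 CPM in FABP1 antisense, against 0.782, 1.00 and 0.699 CPM in vector control. Its log2 fold change of 2.33 (SE 0.20, adjusted p = 2.24e-05, edgeR's quasi-likelihood test) was the highest of the family. GALNT12, which prefers peptides that already carry a GalNAc and whose germline variants are linked to colorectal cancer, had 5.80, 5.95 and 5.90 CPM in FABP1 antisense and 2.45, 1.74 and 1.72 CPM in vector control (log2 fold change 1.57, SE 0.17). GALNT7, another enzyme of partly glycosylated peptides, had 41.6, 44.0 and 45.3 CPM, against 23.6, 27.2 and 20.7 CPM in vector control (log2 fold change 0.87, SE 0.10). In each of these genes all 3 FABP1 antisense libraries lay above all 3 vector control libraries. Groups did not overlap for 62.7% of all tested genes.

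The fall was seen in GALNT6 and GALNT16. GALNT6, a close relative of GALNT3, had 104, 102 and 102 CPM in FABP1 antisense and 151, 158 and 170 CPM in vector control (log2 fold change -0.64, SE 0.07, adjusted p = 8.28e-05, edgeR). GALNT16 had 2.67, 1.99 and 1.72 CPM, against 4.79, 4.09 and 5.31 CPM in vector control (log2 fold change -1.16, SE 0.20). The broadly acting GALNT2 was the highest of the family in level and overlapped between groups, at 150, 149 and 139 CPM in FABP1 antisense and 147, 152 and 158 CPM in vector control (95% interval of the log2 fold change -0.21 to 0.09). GALNT3, known for its action on FGF23, had 116, 112 and 123 CPM, against 106, 109 and 97.1 CPM in vector control, and did not pass (log2 fold change 0.17, adjusted p = 0.0718, edgeR). GALNT1, the other broadly acting enzyme, rose by a log2 fold change of 0.26 (adjusted p = 0.0303), a call lost without FABP1 antisense library 3 or 4 or vector control library 4 (adjusted p up to 0.0937 over all other fits). GALNT10, GALNT11 and GALNT18 did not pass.

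GALNT4 needs care because its reads can be counted to a readthrough gene. It had 20.6, 15.7 and 15.8 CPM in FABP1 antisense, against 7.26, 9.58 and 8.22 CPM in vector control (log2 fold change 1.05, SE 0.14, adjusted p = 0.000303, edgeR). Of the 50-base windows in its transcripts, 93.2% also occur in another gene of the table, chiefly POC1B-GALNT4, whose counts were 57, 253 and 506 in FABP1 antisense and 341, 232 and 177 in vector control. The sum of both genes was 22.0, 21.3 and 24.8 CPM in FABP1 antisense and 13.2, 15.3 and 12.3 CPM in vector control. The sum thus does not overlap between groups either. Its group means differ by less than 2-fold, however, unlike those of GALNT4 alone, and the sum was not tested. POC1B, upstream in the same transcription unit, also rose (log2 fold change 1.22, SE 0.08).

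Branching enzymes of the GCNT family changed in both directions: all 4 tested genes passed, 2 higher and 2 lower. GCNT3, the mucin-type enzyme that makes core 2, core 4 and I branches in mucus-producing epithelia, had 16.6, 12.7 and 14.2 CPM in FABP1 antisense (14.5 ± 1.95, SD, n = 3) and 6.36, 6.25 and 5.15 CPM in vector control (5.92 ± 0.668, SD, n = 3). Its log2 fold change was 1.29 (SE 0.13, adjusted p = 5.52e-05, edgeR). The widely expressed core 2 enzyme GCNT1 had 16.2, 17.9 and 18.0 CPM, against 7.52, 9.65 and 8.27 CPM in vector control (log2 fold change 1.04, SE 0.11). These 2 enzymes of O-glycan branching rose by similar amounts, and neither overlapped between groups.

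GCNT4, a further core 2 enzyme, went the other way at 1.80, 2.12 and 2.42 CPM in FABP1 antisense and 7.40, 10.7 and 7.22 CPM in vector control (log2 fold change -1.99, SE 0.19, adjusted p = 4.42e-05, edgeR). GCNT2, the I-branching enzyme of polylactosamine chains, had 36.5, 31.1 and 33.8 CPM, against 49.0, 59.1 and 51.8 CPM in vector control (log2 fold change -0.66, SE 0.10). Per kilobase of transcript, GCNT2 made up 44.4% ± 0.382 of the family's summed level in FABP1 antisense and 68.7% ± 1.53 in vector control (SD, n = 3 each). GCNT3 made up 35.2% ± 2.23 of it in FABP1 antisense and 14.2% ± 1.80 in vector control. The summed family level per kilobase overlapped, at 18.6, 16.1 and 17.4 CPM per kb in FABP1 antisense and 16.6, 19.8 and 16.8 in vector control, so the make-up moved while the sum did not separate. GCNT7 had 0 counts in all libraries.

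**Figure D2:**
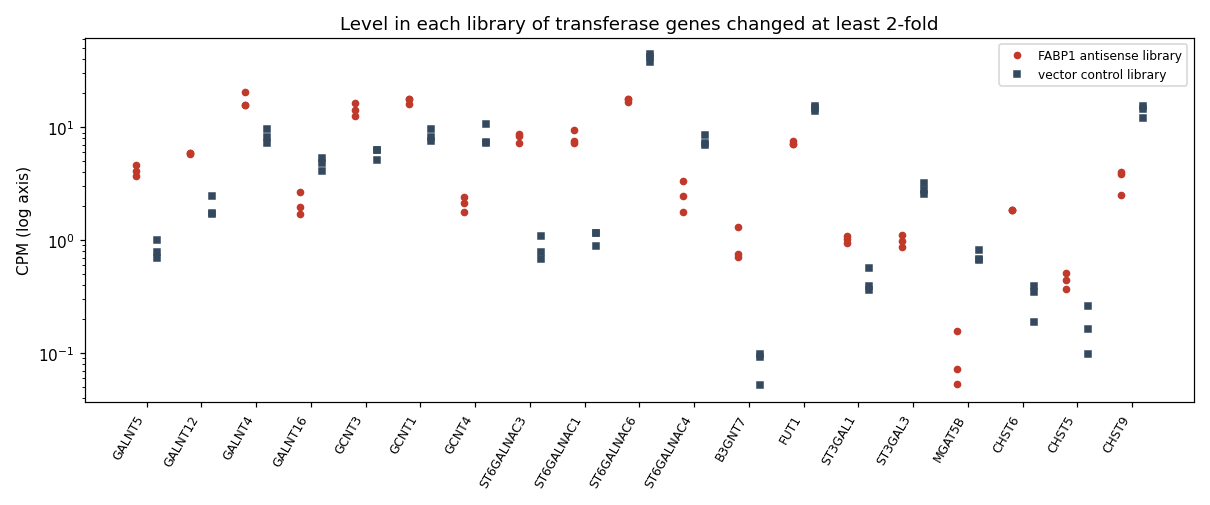
Level in CPM on a log axis, in each library, of the 19 genes that changed at least 2-fold with groups that do not overlap and have counts in both groups; FABP1 antisense libraries are red circles left of the vector control squares. B3GALT5 and CHST15 are left out because of zeros. GALNT4 is drawn without the counts of its readthrough gene. The spread within a group is small beside the gap between groups for genes such as ST6GALNAC3 (8.45, 7.20 and 8.67 CPM in FABP1 antisense, 0.782, 0.686 and 1.09 CPM in vector control).

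The core 1 and core 3 steps lie largely outside the rule or were silent. C1GALT1, the core 1 galactosyltransferase, had 40.3, 40.5 and 50.3 CPM in FABP1 antisense and 56.4, 65.1 and 47.5 CPM in vector control, with groups that overlap (log2 fold change -0.37, SE 0.13, adjusted p = 0.0403, edgeR). B3GNT6, the core 3 enzyme of normal colon, had 0 counts in all 6 libraries, which allows up to 0.0211 CPM in FABP1 antisense and 0.0212 CPM in vector control.

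The ST6GALNAC family, which adds sialic acid in α2,6 linkage to GalNAc, held the largest rises with counts in both groups apart from B3GNT7. ST6GALNAC1, the enzyme of the sialyl-Tn antigen, had 7.53, 7.31 and 9.44 CPM in FABP1 antisense (8.09 ± 1.17, SD, n = 3) and 1.16, 1.15 and 0.885 CPM in vector control (1.07 ± 0.157, SD, n = 3). It thus rose with a log2 fold change of 2.92 (SE 0.17, adjusted p = 2.19e-06, edgeR). ST6GALNAC3, which sialylates chains that already hold an α2,3 sialic acid, averaged 8.11 ± 0.794 CPM in FABP1 antisense and 0.854 ± 0.214 CPM in vector control (SD, n = 3 each), a log2 fold change of 3.25 (SE 0.19, adjusted p = 1.94e-06, edgeR). Both genes were at or below about 1 CPM in every vector control library.

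ST6GALNAC6 and ST6GALNAC4 fell. ST6GALNAC6, which acts on gangliosides and makes disialyl Lewis a in colon, had 17.8, 17.7 and 16.9 CPM in FABP1 antisense (17.5 ± 0.499, SD, n = 3) and 41.6, 37.7 and 44.3 CPM in vector control (41.2 ± 3.30, SD, n = 3). Its log2 fold change was -1.24 (SE 0.08, adjusted p = 4.84e-06, edgeR). ST6GALNAC4, which like ST6GALNAC3 makes disialyl-T, had 2.45, 3.33 and 1.78 CPM, against 7.29, 6.98 and 8.55 CPM in vector control (log2 fold change -1.60, SE 0.21). The 2 enzymes with this shared acceptor, ST6GALNAC3 and ST6GALNAC4, thus had opposite signs. ST6GALNAC5, a ganglioside enzyme, had only 0.437, 0.268 and 0.942 CPM in FABP1 antisense and 0.191, 0.269 and 0.163 CPM in vector control, with overlap. Its call (log2 fold change 1.43, SE 0.52, adjusted p = 0.0442, edgeR) was lost on leaving out any library but FABP1 antisense library 3, with no filter on low counts, and in DESeq2's test (adjusted p up to 0.267 over all other fits). ST6GALNAC2 had 7 counts in FABP1 antisense and 0 in vector control and was not tested.

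Per kilobase of transcript, ST6GALNAC6 held 52.6% ± 1.58 of the family's level in FABP1 antisense and 73.2% ± 0.746 in vector control (SD, n = 3 each). ST6GALNAC1 held 24.1% ± 3.57 in FABP1 antisense and 1.89% ± 0.403 in vector control. The summed level was 13.6, 13.9 and 13.7 CPM per kb in FABP1 antisense, below the 23.3, 21.4 and 25.2 in vector control. A family with 3 rises and 2 falls therefore had a lower sum, since its most abundant gene fell.

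**Figure D3:**
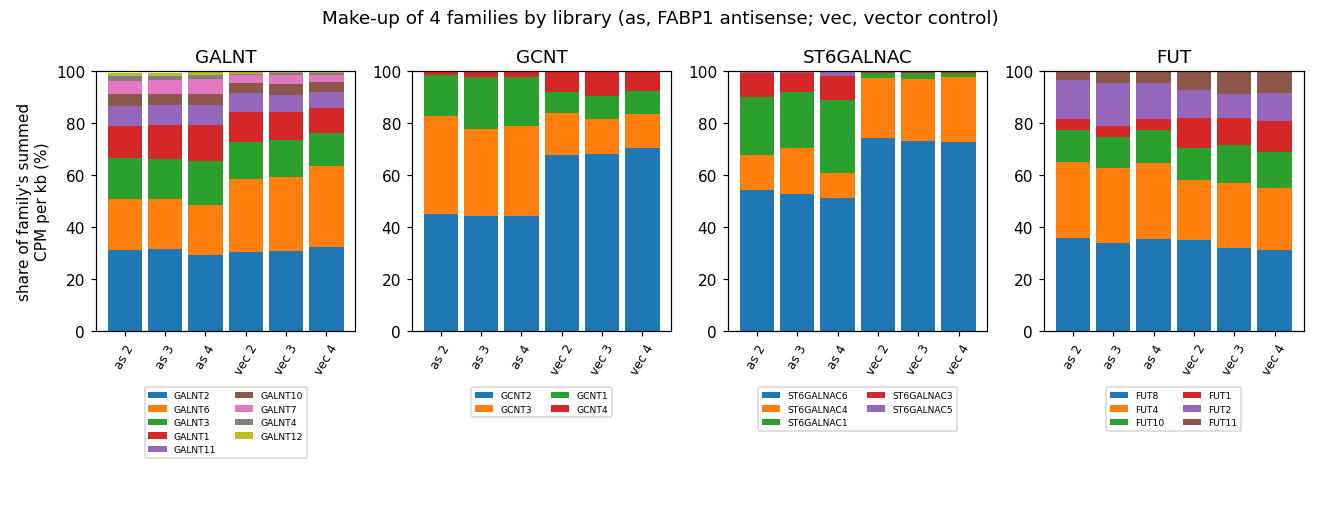
Share of each family's summed CPM per kb taken by its members (those at 1% or more in either group), in each library, FABP1 antisense (as) left of vector control (vec). GCNT3 and ST6GALNAC1 take larger shares in all 3 FABP1 antisense libraries, GCNT2, ST6GALNAC6 and FUT1 larger shares in all 3 vector control libraries.

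Enzymes that lengthen chains with N-acetylglucosamine (B3GNT) and galactose (B4GALT) changed in both directions. In B3GNT 3 of 8 tested genes rose and 2 fell, with a median log2 fold change of 0.15. B3GNT7, which extends sulfated keratan-type chains, had 1.31, 0.760 and 0.711 CPM in FABP1 antisense and 0.0521, 0.0980 and 0.0932 CPM in vector control (log2 fold change 3.51, SE 0.46, adjusted p = 0.000247, edgeR). This was the largest fitted rise among members with counts in both groups, at a low level. B3GNT5, the synthase that commits glycolipids to the lacto and neolacto series, had 44.0, 43.2 and 50.3 CPM, against 31.4, 33.7 and 28.8 CPM in vector control (log2 fold change 0.55, SE 0.09, adjusted p = 0.00105). It shares 24.5% of its windows with MCF2L2, which had at most 26 counts in any library.

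B3GNT9 fell, with 6.75, 5.88 and 5.94 CPM in FABP1 antisense and 11.8, 10.6 and 12.8 CPM in vector control (log2 fold change -0.92, SE 0.11, adjusted p = 0.000158, edgeR). It shares 13.5% of its windows with C16orf70, whose counts were not examined. B3GNT3, which lengthens core 1, overlapped between groups at 5.37, 4.18 and 4.55 CPM in FABP1 antisense and 3.56, 4.34 and 4.17 CPM in vector control (adjusted p = 0.228). B3GNT2, the main polylactosamine enzyme, and B3GNT4 did not pass either. Calls for B3GNT8 (log2 fold change 0.42) and B3GNTL1 (-0.63) did not hold when some libraries were left out, with adjusted p up to 0.126 and 0.0662 over all other fits. For B3GNT8 these were libraries 2 and 3 of either group, and for B3GNTL1 FABP1 antisense library 3 and vector control library 2. B3GNTL1, named QTGAL in RefSeq, glycosylates a transfer RNA base and is no glycan enzyme, and it shares 26.8% of its windows with TBCD, which fell (log2 fold change -0.71).

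In B4GALT 2 of 7 genes rose and 2 fell. B4GALT1, the main galactosyltransferase of N-acetyllactosamine, had 136, 130 and 140 CPM in FABP1 antisense and 78.5, 82.4 and 80.2 CPM in vector control (log2 fold change 0.75, SE 0.07, adjusted p = 2.16e-05, edgeR). B4GALT4 had 101, 94.9 and 97.4 CPM, against 76.4, 68.5 and 66.1 CPM in vector control (log2 fold change 0.47, SE 0.08). B4GALT2 averaged 45.9 ± 3.87 CPM in FABP1 antisense and 72.3 ± 6.10 CPM in vector control (SD, n = 3 each), a log2 fold change of -0.65 (SE 0.09). B4GALT3 fell by 0.33 on the log2 scale (SE 0.07). It shares 21.0% of its windows with PPOX, which fell too (log2 fold change -0.71).

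B4GALT5, a lactosylceramide synthase and the highest gene of the family, had 255, 245 and 264 CPM in FABP1 antisense and 227, 254 and 245 CPM in vector control. It did not pass, and its 95% interval on the log2 scale was -0.08 to 0.23. Its relative B4GALT6, the other lactosylceramide synthase, spread widely in FABP1 antisense, at 32.4, 29.3 and 14.5 CPM, against 27.1, 36.8 and 26.7 CPM in vector control (95% interval -0.85 to 0.35). B4GALT7 and B3GALT6 add the galactoses of the proteoglycan linker. B4GALT7 did not pass (log2 fold change -0.21, adjusted p = 0.126, edgeR), whereas B3GALT6 had 29.7, 29.6 and 24.6 CPM in FABP1 antisense and 44.9, 38.0 and 49.4 CPM in vector control (log2 fold change -0.66, SE 0.12, adjusted p = 0.00143).

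B3GALT5, the β1,3-galactosyltransferase that makes the type 1 chain on which Lewis a, sialyl Lewis a and Lewis b are built in gut epithelium, was the one tested member with 0 counts in a whole group. It (gene ID 10317) had 75, 123 and 183 counts, or 1.82, 2.75 and 3.25 CPM (2.61 ± 0.726, SD, n = 3), in FABP1 antisense libraries and 0 counts in each vector control library. Set against a floor of 3 counts over the vector control group, it was at least 126-fold higher in FABP1 antisense (adjusted p = 3.23e-05, edgeR's quasi-likelihood test). None of its 50-base windows occurs in another gene of the table, and its antisense partner B3GALT5-AS1 had 2 counts in FABP1 antisense and 0 in vector control. The call held in all 12 other fits. Its relatives B3GALT1 and B3GALT2 had 0 counts throughout, and B3GALT4 had 2 counts in FABP1 antisense and 6 in vector control.

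The 250 bases before each annotated start show what sequence stands in front of this gene and of 2 others that rose, the secretor gene FUT2 and GCNT3. They are from RefSeq, build GRCh38.p14, all on the plus strand, and are given 5′ to 3′. B3GALT5 has 2 starts in that table, with windows at chr21:39612690-39612939 and chr21:39642146-39642395. The FUT2 window is chr19:48695721-48695970 and the GCNT3 window chr15:59611533-59611782. Capitals mark matches on either strand to parts of the HNF1, CDX and HNF4 motifs and to the TATA box, whose letters are spelled out after the sequences. No 2 capitalised matches overlap.
B3GALT5 upstream start: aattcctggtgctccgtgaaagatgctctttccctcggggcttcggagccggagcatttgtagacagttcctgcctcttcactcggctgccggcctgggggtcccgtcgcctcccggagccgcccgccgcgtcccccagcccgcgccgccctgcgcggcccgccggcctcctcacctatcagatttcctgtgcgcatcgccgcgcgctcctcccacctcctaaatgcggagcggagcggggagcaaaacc
B3GALT5 downstream start: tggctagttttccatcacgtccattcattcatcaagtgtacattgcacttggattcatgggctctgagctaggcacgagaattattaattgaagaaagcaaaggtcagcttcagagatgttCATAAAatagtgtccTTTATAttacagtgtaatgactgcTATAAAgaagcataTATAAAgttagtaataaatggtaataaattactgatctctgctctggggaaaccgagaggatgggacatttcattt
FUT2: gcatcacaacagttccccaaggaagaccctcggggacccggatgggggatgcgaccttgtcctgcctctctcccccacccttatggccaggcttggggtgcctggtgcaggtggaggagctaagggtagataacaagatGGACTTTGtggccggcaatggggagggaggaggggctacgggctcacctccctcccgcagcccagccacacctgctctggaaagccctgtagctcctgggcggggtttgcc
GCNT3: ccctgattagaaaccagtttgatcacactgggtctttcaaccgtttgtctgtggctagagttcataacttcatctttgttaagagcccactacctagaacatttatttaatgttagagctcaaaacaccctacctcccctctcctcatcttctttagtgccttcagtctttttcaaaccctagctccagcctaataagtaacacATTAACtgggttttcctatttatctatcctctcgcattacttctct

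The letters searched for HNF1 were GTTAAT. For CDX factors they were TTTATG. For HNF4 they were CAAAGTCC. For the TATA box they were TATAAA.

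The B3GALT5 windows differ in composition. The upstream window holds 28 CpG dinucleotides and none of these 4 motifs. The downstream window holds 3 CpG dinucleotides, the CDX letters at 129 bases before the start, and the TATA letters at 114, 90 and 76 bases. The median over all 35116 such windows was 11 CpG, with quartiles of 3 and 23. The FUT2 match to the HNF4 letters begins 111 bases before the start, and the GCNT3 match to the HNF1 letters 46 bases before it.

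RefSeq windows were matched for 76 of the 100 members, in 124 windows. HNF1 letters occurred in 5 of them (4.03%), CDX letters in 7 (5.65%), HNF4 letters in 1 (0.806%) and TATA letters in 3 (2.42%). The shares over all windows were higher for each, at 6.23%, 9.64%, 1.02% and 10.7%. Among other tested members, HNF1 letters stand before B4GALT3 and MGAT5B, which fell, and B3GNT5, which rose. CDX letters stand before MGAT5 and CHST3, which rose. The GC box GGGCGG, not capitalised above, occurred in 73 of the 124 (58.9%) and in 42.6% of all windows. These letters describe the windows and show neither a bound site nor which start is in use, since counts are per gene.

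Fucosyltransferases showed 3 rises and 2 falls among 6 tested genes, with opposite signs for the enzymes of the H antigen. FUT2, which makes H on type 1 chains of gut and secretions, had 17.9, 20.6 and 17.9 CPM in FABP1 antisense (18.8 ± 1.53, SD, n = 3) and 9.90, 9.06 and 9.69 CPM in vector control (9.55 ± 0.436, SD, n = 3). Its log2 fold change was 0.98 (SE 0.09, adjusted p = 3.39e-05, edgeR). FUT1, which makes H on type 2 chains, had 7.19, 7.56 and 7.13 CPM in FABP1 antisense (7.29 ± 0.233, SD, n = 3) and 14.7, 14.1 and 15.3 CPM in vector control (14.7 ± 0.633, SD, n = 3), a log2 fold change of -1.01 (SE 0.09, adjusted p = 1.79e-05, edgeR). The genes lie near each other, with 3 coding genes between them, and the median change of the genes around each was -0.08. FUT2 was the higher of the pair per kilobase in FABP1 antisense, with 15.2% of the family's summed level against 4.31% for FUT1. In vector control the order was reversed, with 10.1% for FUT2 and 11.4% for FUT1.

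FUT4, an α1,3-fucosyltransferase of Lewis x, had 68.2, 70.9 and 72.8 CPM in FABP1 antisense and 41.6, 47.9 and 42.6 CPM in vector control (log2 fold change 0.68, SE 0.08, adjusted p = 0.000115, edgeR). FUT8, which adds the core fucose of N-glycans, had 41.8, 40.8 and 43.4 CPM, against 31.7, 30.7 and 27.8 CPM in vector control (log2 fold change 0.48, SE 0.08). Its windows are shared to 15.2% with FUT8-AS1, which had 107, 72 and 106 counts in FABP1 antisense and 84, 59 and 54 in vector control. FUT11, named POFUT4 in RefSeq and a protein O-fucosyltransferase like FUT10, fell by 0.61 on the log2 scale (adjusted p = 0.0129), and FUT10 did not pass.

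The Lewis enzymes were near silent. FUT3, the Lewis fucosyltransferase, had 0, 8 and 0 counts in FABP1 antisense and 0, 0 and 5 in vector control. FUT5 had 0 counts in FABP1 antisense and 3 in vector control, and FUT6 had 7 counts in FABP1 antisense and 8 in vector control. FUT3, FUT5 and FUT6 are related neighbours that share 17.8%, 22.5% and 13.6% of their windows with other genes, mostly each other, so that reads could also be split or lost among them. FUT7 had 4 counts in FABP1 antisense and 0 in vector control, and FUT9 had 0 in all libraries. The summed level of the family was 38.7, 40.2 and 40.8 CPM per kb in FABP1 antisense and 29.9, 31.8 and 29.6 in vector control.

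Among α2,3-sialyltransferases, 2 of 5 tested genes rose and 1 fell. ST3GAL2, which sialylates core 1 and gangliosides, had 73.2, 79.5 and 68.3 CPM in FABP1 antisense and 43.2, 39.7 and 47.0 CPM in vector control (log2 fold change 0.77, SE 0.09, adjusted p = 0.000135, edgeR). ST3GAL1, also an enzyme of core 1, was low, with 0.947, 1.03 and 1.10 CPM in FABP1 antisense and 0.365, 0.563 and 0.396 CPM in vector control (log2 fold change 1.23, SE 0.29). ST3GAL3, which sialylates type 1 chains, had 0.874, 1.12 and 0.978 CPM, against 3.23, 2.57 and 2.82 CPM in vector control (log2 fold change -1.54, SE 0.20). ST3GAL1 and ST3GAL2 were thus higher and ST3GAL3 lower in FABP1 antisense, with ST3GAL1 and ST3GAL3 at low levels.

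ST3GAL4 and ST3GAL6, enzymes of sialyl Lewis x, did not pass. ST3GAL4 had 13.3, 11.4 and 10.6 CPM in FABP1 antisense and 13.5, 13.5 and 14.9 CPM in vector control (log2 fold change -0.25, adjusted p = 0.0708, edgeR). ST3GAL6 averaged 18.3 ± 1.86 CPM in FABP1 antisense and 19.4 ± 0.791 CPM in vector control (SD, n = 3 each, adjusted p = 0.486, edgeR). ST3GAL5, the GM3 synthase, had 29 counts in FABP1 antisense and 20 in vector control and was not tested.

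ST6GAL1, the α2,6-sialyltransferase of N-glycans, rose modestly, with 100, 105 and 104 CPM in FABP1 antisense and 69.8, 77.9 and 72.7 CPM in vector control (log2 fold change 0.49, SE 0.07, adjusted p = 0.000390, edgeR). ST6GAL2 had 0 counts. None of the 6 ST8SIA genes, which build oligosialic and polysialic chains, reached the filter, and their highest count in a library was 9, in ST8SIA4. That gene had 5, 5 and 9 counts in FABP1 antisense and 0 in each vector control library.

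Of 7 tested N-glycan genes of the MGAT family 3 rose and 3 fell. MGAT4A, which starts a β1,4 branch, had 110, 115 and 113 CPM in FABP1 antisense and 57.6, 63.4 and 54.4 CPM in vector control (log2 fold change 0.95, SE 0.08, adjusted p = 1.28e-05, edgeR). MGAT5, which starts the β1,6 branch, had 56.3, 62.1 and 64.2 CPM, against 33.3, 39.4 and 35.6 CPM in vector control (log2 fold change 0.75, SE 0.09). MGAT4B, the highest member, had 368, 370 and 338 CPM, against 280, 256 and 319 CPM in vector control (log2 fold change 0.33, SE 0.09, adjusted p = 0.0123). MGAT4A, MGAT5 and MGAT4B were each higher in every FABP1 antisense library than in any vector control library.

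MGAT3, whose bisecting GlcNAc blocks further branching, fell, with 12.3, 13.6 and 11.8 CPM in FABP1 antisense and 23.1, 19.4 and 23.5 CPM in vector control (log2 fold change -0.81, SE 0.10, adjusted p = 0.000197, edgeR). MGAT2, an earlier step, fell by 0.31 on the log2 scale (SE 0.06, adjusted p = 0.00317, edgeR). MGAT1, which opens the pathway to complex N-glycans, had 144, 146 and 123 CPM in FABP1 antisense against 141, 127 and 157 CPM in vector control, with overlap (95% interval -0.26 to 0.19). MGAT5B, a brain-type relative of MGAT5, was low in both groups, at 0.0729, 0.157 and 0.0533 CPM in FABP1 antisense and 0.816, 0.686 and 0.675 CPM in vector control (log2 fold change -2.94, SE 0.44, adjusted p = 0.000542).

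Of the 9 tested sulfotransferases 3 rose and 4 fell. The GlcNAc 6-O-sulfotransferases CHST6 and CHST5 lie side by side. CHST6 had 1.87, 1.86 and 1.85 CPM in FABP1 antisense and 0.191, 0.392 and 0.349 CPM in vector control (log2 fold change 2.60, SE 0.30, adjusted p = 0.000132, edgeR). CHST5, the intestinal enzyme, had 0.510, 0.447 and 0.373 CPM, against 0.261, 0.0980 and 0.163 CPM in vector control (log2 fold change 1.28, SE 0.43, adjusted p = 0.0311). That call was lost in DESeq2's test, with no filter, and without any library but vector control library 2 (adjusted p up to 0.0985 over all other fits). CHST4, another enzyme of this kind, had 0 counts.

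CHST9, which sulfates terminal GalNAc, had 4.01, 2.50 and 3.86 CPM in FABP1 antisense and 14.6, 15.3 and 12.1 CPM in vector control (log2 fold change -2.02, SE 0.18, adjusted p = 2.49e-05, edgeR). CHST15, which makes the disulfated chondroitin unit, had 0, 0 and 3 counts in FABP1 antisense and 53, 29 and 50 counts in vector control. The ratio of the group totals was 0.0226, with a 95% counting interval of 0.00460 to 0.0675 that covers counting error only (adjusted p = 0.000234, edgeR). CHST9 and CHST15 were thus low in every FABP1 antisense library.

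The chondroitin 4-O-sulfotransferases CHST13 and CHST12 fell as well. CHST13 had 29.7, 30.8 and 25.6 CPM in FABP1 antisense and 55.4, 45.1 and 55.0 CPM in vector control (log2 fold change -0.85, SE 0.11, adjusted p = 0.000214, edgeR), and CHST12 fell by 0.43 on the log2 scale (SE 0.11). CHST3, a chondroitin 6-O-sulfotransferase and the highest of the family in CPM, rose slightly, with 77.7, 79.3 and 77.9 CPM in FABP1 antisense and 64.0, 71.0 and 68.9 CPM in vector control (log2 fold change 0.20, SE 0.07, adjusted p = 0.0305). With 1 library left out, that call held only without vector control library 3 (adjusted p up to 0.117 over all other fits). CHST7 and CHST14 did not pass.

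Genes that supply these enzymes showed their largest change in sulfate activation. PAPSS2, a synthase of the sulfate donor PAPS, had 31.1, 34.9 and 36.5 CPM in FABP1 antisense and 0.729, 0.735 and 0.466 CPM in vector control (log2 fold change 5.71, SE 0.15). Its relative PAPSS1 fell, with 57.2, 50.5 and 51.1 CPM in FABP1 antisense and 94.3, 95.8 and 90.6 CPM in vector control (log2 fold change -0.82, SE 0.07). The PAPS transporter SLC35B3 fell (log2 fold change -1.05, SE 0.10) and the sulfate carrier SLC26A2 rose (log2 fold change 0.33, SE 0.09), so 2 of 5 listed genes rose and 2 fell.

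The sugar donor lists mostly moved less. For sialic acid 2 of 6 genes rose and 1 fell: GNE, the rate-limiting enzyme of its synthesis, had 18.7, 19.2 and 18.4 CPM in FABP1 antisense and 10.2, 10.2 and 9.55 CPM in vector control (log2 fold change 0.91, SE 0.08). CMAS, which activates it, rose by a log2 fold change of 0.25, and the phosphatase NANP fell by 0.39. For fucose 2 of 6 rose, the kinase FUK (0.40) and the Golgi transporter SLC35C1 (0.46), and FPGT fell by 0.59. For galactose and hexosamines 4 of 16 rose and 2 fell, with the largest changes in GALK2 (0.86), SLC35A3 (0.79), UGDH (0.62) and GALK1 (-0.47). The medians of these 3 lists were 0.13, 0.081 and 0.11, beside 0.0082 over all tested genes.

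Glycan genes outside the symbol rule are given by count. Of 20 other transferases 2 rose and 7 fell: B4GALNT3, which makes LacdiNAc, rose (log2 fold change 1.12, SE 0.10), and MFNG (-0.72), B3GALNT1 (-0.65) and RFNG (-0.55) had the lowest values. Of 16 glycosidases and related genes 5 rose and 6 fell. The sialic acid esterase SIAE had 79.5, 86.9 and 102 CPM in FABP1 antisense and 36.1, 30.9 and 31.4 CPM in vector control (log2 fold change 1.45, SE 0.11). NEU4, a sialidase, had 7 counts over the FABP1 antisense group and 2510 over vector control (adjusted p = 2.10e-06, edgeR). NAGLU, which removes GlcNAc from heparan sulfate, also fell (log2 fold change -0.86, SE 0.12).

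The mucins, which carry many of these glycans, were higher in FABP1 antisense in 7 of 8 tested genes, with 0 falls and a median log2 fold change of 2.08. MUC13, a membrane mucin, had 149, 145 and 147 CPM in FABP1 antisense and 12.2, 14.1 and 14.7 CPM in vector control (log2 fold change 3.43, SE 0.09, adjusted p = 2.99e-08, edgeR), and made up most of the summed level. That sum was 166, 167 and 165 CPM in FABP1 antisense and 20.4, 22.5 and 23.5 CPM in vector control. MUC17 (log2 fold change 4.26, SE 0.64) and MUC3A (0.83, SE 0.11), also membrane mucins, rose, whereas MUC20 did not pass. MUC2, the secreted mucin of goblet cells, had 56 counts over FABP1 antisense and 2 over vector control, a ratio of 27.8 with a 95% counting interval of 7.36 to 236.

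Goblet markers, like the mucins, mostly rose, while the GALNT, GCNT and ST6GALNAC families changed in both directions. MUC2 is on both the goblet and the mucin list. Of 6 tested goblet markers 5 rose and 0 fell. Their summed level was 448 to 470 CPM in FABP1 antisense and 128 to 150 CPM in vector control, nearly all of it AGR2. SPDEF, which drives goblet maturation, had 0 counts in all libraries, and CLCA1 had 24 counts in FABP1 antisense and 0 in vector control. Of 6 tested enterocyte markers 4 rose and 2 fell, with summed levels of 483 to 521 CPM in FABP1 antisense and 527 to 599 CPM in vector control, most of it VIL1, which fell. The brush border enzyme SI had 19.5, 24.1 and 23.4 CPM in FABP1 antisense against 0.330, 0.343 and 0.0932 CPM in vector control. The apolipoprotein APOA4 had 0.947, 0.850 and 0.800 CPM in FABP1 antisense against 31.9, 27.9 and 32.8 CPM in vector control. The median log2 fold change of the enterocyte markers was 1.20. In bulk RNA, more cells of a kind and more RNA per cell cannot be told apart, and the part of these markers in the results was not tested.

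**Figure D4:**
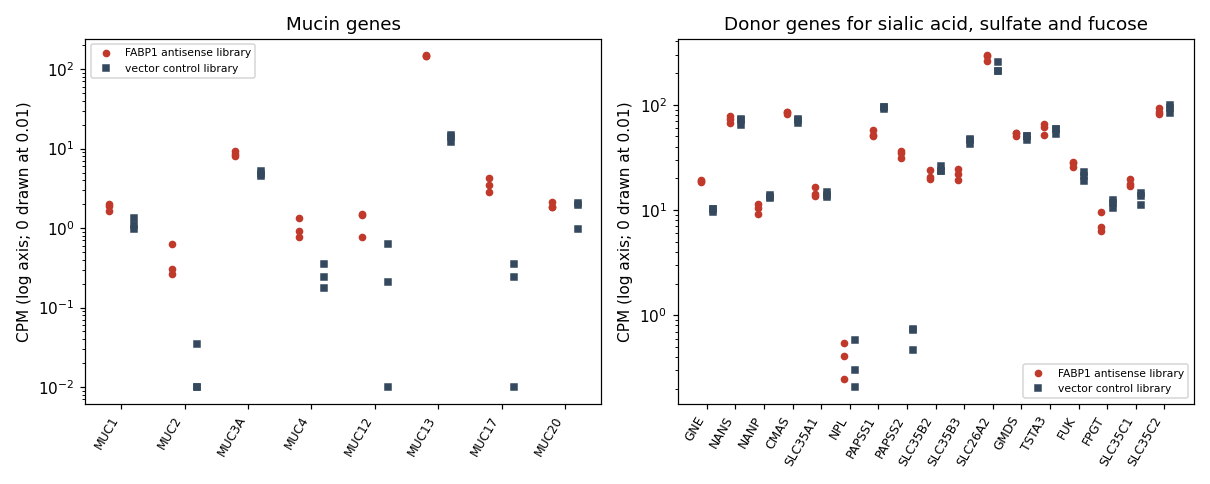
Level in CPM on a log axis, in each library, of tested mucin genes (left) and donor genes for sialic acid, sulfate and fucose (right), FABP1 antisense circles left of vector control squares, with 0 drawn at 0.01. MUC13 and PAPSS2 separate widely (means of 147 and 34.2 CPM in FABP1 antisense, 13.7 and 0.643 CPM in vector control, n = 3 each). The gaps of the other donor genes are smaller, though several of these genes rose or fell.

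Each gene was also set beside its neighbours in RefSeq gene order. For 52 of the 66 tested members a median over 50 genes on either side could be taken. These medians ran from -0.44 to 0.52 on the log2 scale, and 12 were at least 0.3 in size. Of the 39 called members with such a median, 1 (CHST3) changed by no more than its neighbours did in the same direction. B4GALT3 came close to its neighbours, with a change of -0.33 beside a median of -0.29. The largest neighbour median in size among members that rose was at GALNT4 (0.52 beside a change of 1.05). Summed with POC1B-GALNT4, GALNT4 differed by less than 2-fold between group means.

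Neighbours of ST6GALNAC6 and ST6GALNAC4, which are adjacent, had a median of -0.44, beside changes of -1.24 and -1.60. B4GALT2 and ST3GAL3, with 4 coding genes between them, had neighbour medians of -0.44 and -0.43, beside changes of -0.65 and -1.54. Other members moved against their surroundings. GCNT4 changed by -1.99 where its neighbours had a median of 0.39, and GALNT6 by -0.64 where its neighbours had 0.33. ST6GALNAC3 changed by 3.25 and ST6GALNAC1 by 2.92 where neighbours had -0.37 and -0.28. The part of such regional shifts in the changes of single genes was not tested.

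**Figure D5:**
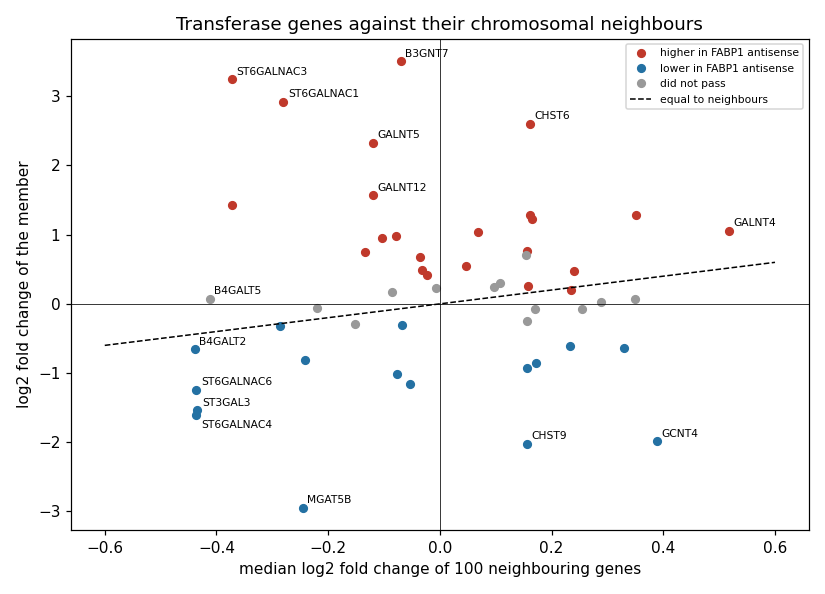
Log2 fold change of each of 52 tested genes against the median log2 fold change of its 100 neighbours (50 on either side), FABP1 antisense over vector control; the dashed line marks equal values. Neighbour medians stay between -0.44 and 0.52 while the genes themselves run from -2.94 to 3.51.

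The 34 untested members had at most 15 counts in a library, and 19 had 0 counts in all 6. Besides those named above, GALNT9 had 9, 9 and 3 counts in FABP1 antisense and 0 in each vector control library. CHST8, which like CHST9 sulfates GalNAc, had 5, 12 and 5 counts in FABP1 antisense and 0 in each vector control library. These 2 genes and ST8SIA4 were seen in every FABP1 antisense library and in no vector control library, at counts too low for the filter, and they were picked out after their values were seen. CHST1, CHST10, MGAT4C, MGAT4D, GALNT8, GALNT14, GALNT15, GALNTL5 and GALNTL6 were among those with 0 counts throughout.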

How the data were processed

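The deposited table holds read counts per gene and library, which the authors did not normalize, with Entrez IDs and symbols. Tools named in the submitters' processing notes, without roles, are StringTie 1.3.4d, HISAT2 2.1.0, Bowtie2 2.3.4.1, Trimmomatic 0.38 and bcl2fastq, and the build is GRCh37. Libraries were TruSeq stranded per the labels' protocols, but the sources used here do not say whether counting used strand, so overlapping and antisense genes are uncertain. The table's 12 other per-library columns were not used here. Header numbers (2 to 4) differ from the labels' replicate numbers, so columns were assigned to groups only.

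The counts were tested with edgeR 4.0.16 under R 4.3.3: filterByExpr, TMM scaling, and the quasi-likelihood test of 3 FABP1 antisense against 3 vector control libraries without covariates, with Benjamini-Hochberg adjustment over all 14640 tested genes at 0.05. The biological coefficient of variation was 11.8%. CPM used TMM effective library sizes, and SDs are over 3 libraries. Folds against a group at 0 are bounds at 3 counts over that group. Intervals of ratios are exact binomial at 95% and, like the floors, cover counting error only. Within groups, chi-square values per degree of freedom between libraries were 13.6 to 39.3, above counting noise. Spread of this kind cannot show whether libraries came from separate cultures. The test took each library as a replicate. The test was tried on simulated data.

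CPM per kb used transcript lengths of GENCODE release 29, matched by RefSeq accession. Shared sequence is the share of a gene's 50-base transcript windows found in another gene of the table. Gene order and promoters came from RefSeq GRCh38.p14. The 10013 genes with a mean log2 CPM of 3 or more served as neighbours. Named genes were those changed at least 2-fold past the test with no overlap, each family's most abundant gene and a set list. For accompanying lists they were up to 4 of the largest changes at a mean log2 CPM of at least 1. A gene that this rule selects is not reported here. Others were named after their values were seen, chiefly to account for all members. The members and lists were chosen with earlier results of these data known. Alternatives were DESeq2 1.42.0 (size factors, test), library size only, 2 filters, each library left out, and a replicate block. Other steps used Python 3.11.15.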

Additional observations from a re-analysis of the deposited data

How the results depend on the processing

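Over 12 other fits, 784 values of the 66 tested members were recomputed: 741 kept call and sign, 33 lost the call, 5 gained it and 5 turned sign. All 5 turns were in genes that did not pass: B3GNT4 (-0.096 without vector control library 2, -0.038 without FABP1 antisense library 4), B4GALT6 (without FABP1 antisense library 4) and MGAT1 (without library 4 of either group). With each library left out these log2 fold changes ran from -0.096 to 0.28 for B3GNT4, from -0.47 to 0.031 for B4GALT6 and from -0.11 to 0.041 for MGAT1. The gains were in B3GNT2 (DESeq2's test, and without vector control library 4), B4GALT7 and FUT10 (without vector control library 3) and ST3GAL4 (without FABP1 antisense library 2). With each library left out, CHST genes that rose numbered 1 to 2, B3GNT genes that fell 1 to 3, ST3GAL genes that fell 1 to 2, sulfate donor genes that rose 1 to 2, other transferases that rose 1 to 3 and those that fell 4 to 6. Requiring 1 CPM in 3 libraries, which tests fewer genes, left 1 ST3GAL gene and 4 mucins that rose, and with no filter 1 ST8SIA gene, ST8SIA4, rose. Same-numbered libraries deviated from their group means with correlations of 0.04, -0.19 and -0.31. No pairing by header number was visible, but 3 libraries per group cannot exclude one. Not every library correlated best with its own number. With that replicate block 1 CHST gene and 1 sialic acid donor gene rose, and B3GNT8, GALNT1 and ST6GALNAC5 no longer passed. Moving from 50 to 25 neighbours on either side moved 23 of 52 neighbour medians by more than their SD, by at most 0.142 (B4GALT4). That SD is over the 3 FABP1 antisense libraries, each set against the vector control mean, so it leaves out spread within vector control. The causes of these moves were not tested. At this depth the 34 untested members stay undetermined.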
